A study of Mus musculus with 4 samples.

Results

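The 3 genes for the ligands transforming growth factor beta (Tgfb1, Tgfb2, Tgfb3), the 3 for their cell surface receptors (Tgfbr1, Tgfbr2, Tgfbr3) and the 4 for latent TGF-beta binding proteins (Ltbp1, Ltbp2, Ltbp3, Ltbp4) were followed in single cells of mouse tail intervertebral discs. These 10 genes were taken by symbol from the 32285 genes listed in the count tables, and all 10 were present. Their UMIs (distinct transcript molecules) were counted in the 3846 cell barcodes with at least 250 detected genes.

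TGF-beta is secreted in a latent form, folded with its own propeptide. Latent binding proteins tie that complex to fibrillin and fibronectin in the matrix, from which integrins, proteases and thrombospondin can release the ligand. Free ligand binds the type II receptor Tgfbr2, which recruits and phosphorylates the type I receptor Tgfbr1 to signal through SMAD2 and SMAD3, while the co-receptor betaglycan (Tgfbr3) presents the ligand, TGF-beta 2 in particular. In disc and cartilage the pathway is known for its part in building and keeping the matrix.

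All mice were female, wild type C57BL/6 and 12 weeks old. Injured discs (levels CC5/6 to CC9/10) had been punctured from both sides with a 30G needle 7 days earlier, and control discs (levels CC12/13 to CC16/17) were unpunctured discs farther down the same tails, so tail level and injury cannot be told apart. Per the labels, 30 discs of 6 mice were pooled per group, rendered to a cell suspension, frozen, thawed and sorted for viable cells. There was 1 control and 1 injured library in each of 2 rounds, so n = 2 per group. Whether the 6 mice and 30 discs stand for each round or for both is not given in the sources used here. Where rounds are not paired, p-values measure the spread between these pools. Where they are paired, p-values measure how unequal the difference between injured and control was in the 2 rounds.

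The cells held 1064193 and 2161114 UMIs in control rounds 1 and 2 and 6727076 and 10558620 in injured rounds 1 and 2, so control values carry the larger counting error. Of the 378 cells of control round 1, 159 shared a barcode with the injured library of that round at a similar or far higher UMI count there. Results are given with and without these shared barcodes. Leaving them out also meant leaving out, in all libraries, the clusters whose control round 1 cells such barcodes made up. That kept 219 and 477 cells of control rounds 1 and 2 and 717 and 1808 of injured rounds 1 and 2. Acan and Col2a1, defining genes of cartilage matrix, were present in all 4 libraries (1012 to 2130.5 and 1040 to 5499 CPM, UMIs of the gene per 1000000 UMIs of the cells, the level scale used throughout). The notochord gene T was under 1 CPM in both injured libraries, against 76.1 and 18.0 in the controls. Markers of tissues foreign to a disc were also higher in the control libraries: 9 pancreatic acinar genes summed to 1799 and 1230 CPM there, against 24.5 and 3.4 after injury. In the disc-cell classes described below those 9 genes summed to at most 11.7 CPM.

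Cells were grouped without the 10 genes, and 18 clusters resulted. The class named inner annulus or cartilage-like had 206 and 258 control cells (rounds 1 and 2) and 485 and 1043 injured cells. That named outer annulus or fibroblast-like had 32 and 51 control and 30 and 383 injured cells. Different clusters made up a class in the groups. A cluster led by Cnmd and Grem1 held 48.5% and 82.9% of the inner class in the controls and 6.80% and 7.38% after injury, when clusters led by Saa1, by M1ap and Fmod, by Mmp12 and by Il11 took its place. In the outer class, a cluster led by Myoc and Angptl7 held 84.4% and 94.1% of control cells but 53.3% and 18.0% of injured cells, the others being led by Aspn, Cthrc1 and Postn or by genes of dividing cells. The Myoc and Angptl7 cluster had 27 and 48 control cells but only 16 and 69 injured cells, so its values in injured round 1 rest on 117407 UMIs. Those 16 cells are fewer than the 20 per library asked for where clusters are ranked. With a coarser clustering (resolution 0.5 in place of 1), a cluster led by Myoc and Angptl7 took the inner name, and the outer class was left with 5 and 4 control cells.

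Over all cells, the genes that turned out to differ most, in opposite directions, were Ltbp2 and Ltbp4. Ltbp2 lies on chromosome 12 (GRCm38, chr12:84783212-84876532, minus strand) and Ltbp4 on chromosome 7 (chr7:27305136-27337692, minus strand). The 250 bases before the first RefSeq start of each (GRCm38.p6, chr12:84876492-84876741 and chr7:27337613-27337862) are shown to compare the regulatory sequence beside the start, 5′ to 3′ along the gene, with capitals for CAGAC on either strand, the short core that SMAD proteins are known to bind.
Ltbp2 promoter: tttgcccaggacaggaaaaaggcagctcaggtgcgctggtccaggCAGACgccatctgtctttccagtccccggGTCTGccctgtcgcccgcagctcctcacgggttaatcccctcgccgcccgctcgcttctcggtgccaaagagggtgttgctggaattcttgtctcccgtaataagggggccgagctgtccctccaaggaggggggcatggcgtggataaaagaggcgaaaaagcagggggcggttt
Ltbp4 promoter: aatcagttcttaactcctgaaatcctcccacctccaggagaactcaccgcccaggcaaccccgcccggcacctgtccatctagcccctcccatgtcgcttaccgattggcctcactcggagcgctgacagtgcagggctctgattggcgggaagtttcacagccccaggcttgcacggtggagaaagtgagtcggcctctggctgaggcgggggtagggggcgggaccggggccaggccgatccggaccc
CAGAC occurred 2 times before Ltbp2 and 0 times before any of the 3 Ltbp4 starts. It was found before 42.2% of all 32851 RefSeq starts, so such a match is common. RefSeq windows were matched for 8 of the 10 genes, and 7 of their 12 starts held the motif. The GC box GGGCGG was counted 2 times before Ltbp2, 3 times before this Ltbp4 start and 5 times before Tgfb1 (32.7% of all starts held it). TGANTCA, the AP-1 motif, was in none of the 12 windows and in 6.75% of all. These are letter matches in a fixed window and do not show binding.

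**Figure D1:**
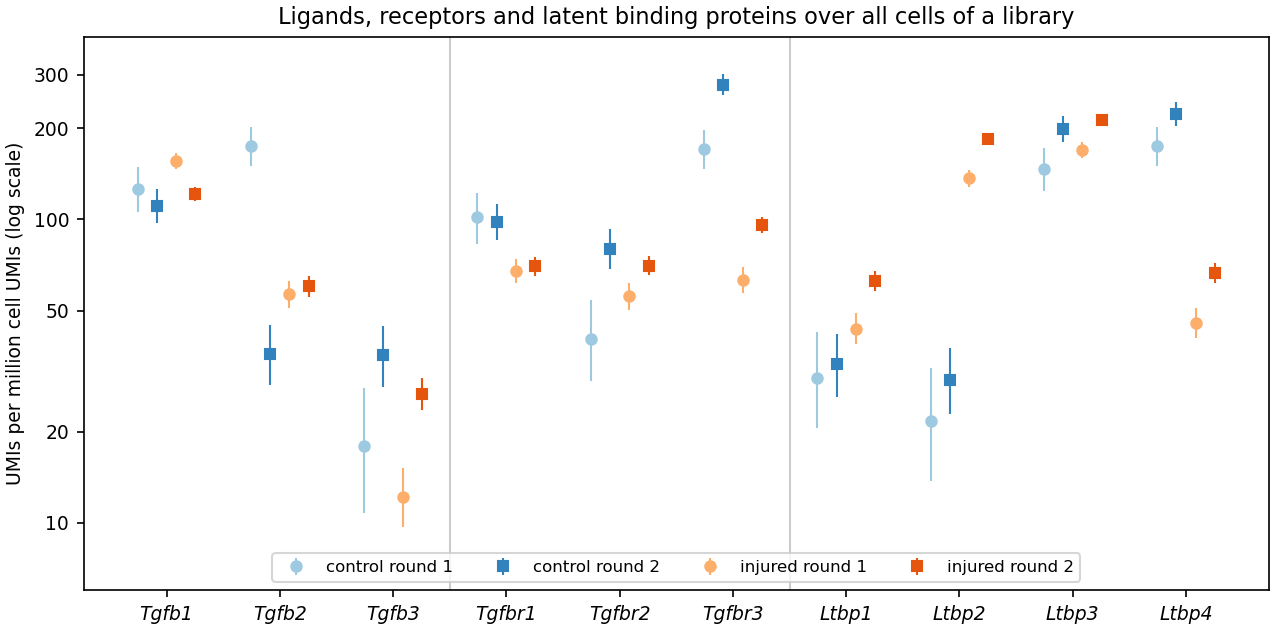
CPM (log axis) of each gene over all cells of each library, with exact 95% Poisson intervals that cover counting error only. The injured libraries lie above the controls for Ltbp1 and Ltbp2 and below them for Tgfbr1, Tgfbr3 and Ltbp4; for Tgfb2, control round 1 stands apart at 175.

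Over all cells of a library, the levels of Ltbp2 and Ltbp4 crossed after injury and that of Tgfbr3 was lower. Without pairing the rounds, edgeR's quasi-likelihood test called 0 of the 10 genes at an adjusted p of 0.05 (3 at an unadjusted p under 0.05, and 2 by DESeq2, which called 1.51% of all genes), and 0.117% of the 11990 genes tested. With the round as a block, since both libraries of a round come from the same tails, it called 3 of 10 (Ltbp2 higher, Ltbp4 and Tgfbr3 lower) against 6.14% of all genes. The paired fit is meant below wherever a gene is said to rise or fall. Without the shared barcodes the paired test called 4 of 10, Ltbp1 in addition, against 8.04% of all genes, and the unpaired test 0 of 10 (4 at an unadjusted p under 0.05) against 0.0171%. Without the mitochondrial and nucleus pulposus-like clusters the paired test called those 4 genes, against 7.95%, and the unpaired test 0 of 10 (4 at an unadjusted p under 0.05) against 0.161%. In these sums, fewer cells of a type and less RNA per cell cannot be told apart.

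Among the ligands, Tgfb1 was the most evenly spread. It stood at 126 and 111 CPM in the controls and at 156 and 121 after injury, and the groups overlapped (118 ± 10.8 against 139 ± 24.4, SD, n = 2). The log2 fold change was 0.28 ± 0.24 (SE) with the block, with an edgeR adjusted p of 0.556. In the inner class it was 0.21 ± 0.24 and in the outer class 0.11 ± 0.41. Tgfb1 encodes the ligand most studied in wound repair. No change of its transcript was detected with these libraries.

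Tgfb1 was the member seen best in macrophages. In the injured libraries, the cluster led by Pf4, Ctss and Trem2 held 236 (round 1) and 241 (round 2) CPM, above the other 6 clusters with at least 20 cells in both injured libraries. Next came the Il11 and Npy cluster at 174 and 165. In the outer class Tgfb1 was lower, at 87.4 and 79.3 in the controls and 91.3 in each injured library. Free RNA, taken from barcodes of at most 100 UMIs, held Tgfb1 at 134 CPM in injured round 1 and at 38 and 41 in the control and injured libraries of round 2, so its level in the cells of injured round 1 was only 1.16 times that of free RNA. The macrophage class held 37 and 89 injured cells but 1 and 3 control cells, and it was not compared between groups.

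Tgfb2 was dominated by control round 1. Its level was 175 CPM there, 36.1 in control round 2, and 56.6 and 60.1 in the injured libraries. The log2 fold change of -0.43 ± 0.44 did not pass the test (edgeR adjusted p 0.641, with the block). Unpaired it was -0.79 ± 0.67, and 0.80 ± 0.61 without control round 1, so the direction rested on that library. In round 1 the control level was 3.09 times the injured level (95% Poisson interval 2.58 to 3.69), and in round 2 the injured level was the higher, 1.67 times (1.32 to 2.14). Without the shared barcodes control round 1 remained at 189. A single cell of the Cnmd and Grem1 cluster gave 36 of its 186 UMIs, and 5 cells gave 48.4% of them. In the nucleus pulposus-like class, which carries T and whose cells' UMIs were 46.0% mitochondrial in the median, Tgfb2 had 60 UMIs in 29 cells of control round 1 (958 CPM), all of them in 8 cells and 21 in a single cell, against 2 UMIs in 67 cells of control round 2 (19.2 CPM).

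After injury Tgfb2 varied widely between clusters. In injured round 2, the only library with more than 20 cells of each, it stood at 148 CPM in the Aspn, Cthrc1 and Postn cluster and at 162 in the dividing cluster. The M1ap and Fmod cluster followed with 131 and 58.2 in the injured rounds, and the Cnmd and Grem1 cluster had 14.3 and 21.7. Macrophages held 0 Tgfb2 UMIs in both libraries, which allows up to 16.8 and 10.0 CPM (3 counts of a library's macrophage UMIs).

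Tgfb3 was the rarest ligand. It stood at 17.9 and 35.6 CPM in the controls and at 12.2 and 26.6 after injury, and in both groups round 2 was the higher, so the groups overlapped. The change was -0.39 ± 0.28 on the log2 scale with the block (edgeR adjusted p 0.468). Its highest level in a named class was in the outer class of control round 2, 76.8 CPM on 30 UMIs, where control round 1 had 35.0 on 6. The macrophage and nucleus pulposus-like classes held 0 UMIs of Tgfb3 in every library with at least 20 such cells, as did the 36 endothelial-like cells of injured round 1. The Tgfb3 gene overlaps Ttll5 on the opposite strand at their 3′ ends, where these libraries are read.

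The type I receptor Tgfbr1 was lower after injury in each round, but by little. It stood at 101 and 98.1 CPM in the controls and at 67.6 and 70.0 after injury, with no overlap. The fitted log2 change of -0.47 ± 0.24 did not pass the test (edgeR adjusted p 0.287 with the block). Within the Cnmd and Grem1 cluster its level was 118 and 105 in the controls and 115 and 119 after injury, so the groups overlapped there. In the outer class it stood at 117 and 125 in the controls against 87.9 and 33.1 (log2 fold change -1.32 ± 0.44, adjusted p 0.0982). The lowest levels in clusters of the outer class were in the Aspn and Postn cluster (26.7) and the dividing cluster (19.0) of injured round 2, while the Myoc and Angptl7 cluster of that library had 83.3. Within the Myoc and Angptl7 cluster the paired change was -0.19 ± 0.40 (edgeR adjusted p 0.978). Leaving out the dividing cluster, which was not planned, removed 2 and 65 injured and 0 control cells from the outer class. In the cells left, Tgfbr1 passed the paired test (-1.27 ± 0.43, edgeR adjusted p 0.0458), and 5 of the 10 genes were called against 7.24% of all genes. The unpaired test of those cells called 0 of 10 (6 at an unadjusted p under 0.05) and 0% of all genes, with an adjusted p of 0.425 for Tgfbr1. The unpaired change of -1.19 in the outer class was -1.87 without injured round 1 and -0.56 without injured round 2.

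The type II receptor Tgfbr2 showed the reverse in the outer class. Its level there was 17.5 (3 UMIs) and 64.0 in the controls and 125 and 103 after injury, with no overlap. The log2 change was 1.31 ± 0.49, with an edgeR adjusted p of 0.147 with the block and of 0.0463 once the dividing cluster was left out (1.38 ± 0.47). Unpaired, the adjusted p was 0.421 and, without the dividing cluster, 0.408. The unpaired change of 1.30 in the outer class was 2.62 without control round 2 and 0.83 without control round 1. In the inner class the control values of 44.8 and 79.4 spanned the injured values of 50.1 and 55.5. The outer-minus-inner difference in the change of Tgfbr2 was 1.48 ± 0.49 on the log2 scale without the block, and it did not pass (adjusted p 0.347 without and 0.0823 with the block). It was 2.30 without control round 2 and 1.15 without control round 1. None of the 10 genes passed this test of class by injury, against 0.29% of 9311 genes tested without the block and 2.58% with it. At an unadjusted p under 0.05 there were 2 of 10 without the block and 4 with it, and DESeq2 called 0 (0.344% of all genes). Paired and without the shared barcodes it was 0 of 10 again (3 at an unadjusted p under 0.05), against 2.61%.

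Across clusters of the injured libraries, macrophages held UMIs of both signalling receptors, Tgfbr1 at 67.3 and 110 CPM on 12 and 33 UMIs and Tgfbr2 at 123 and 77.0 on 22 and 23. Free RNA of those libraries held Tgfbr1 at 29.9 and 16.3 and Tgfbr2 at 31.2 and 23.3. The co-receptor was close to missing there, with 0 and 2 UMIs of Tgfbr3 in 37 and 89 macrophages. The 36 endothelial-like cells of injured round 1 held Tgfbr2 at 122, Tgfbr1 at 46.4 and Tgfbr3 at 46.4.

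Tgfbr3, encoding betaglycan, fell. It stood at 171 and 278 CPM in the controls and at 63.2 and 95.8 after injury, so both injured libraries lay below both controls. The control level was 2.71 times the injured one in round 1 (95% Poisson interval 2.26 to 3.23) and 2.90 times in round 2 (2.62 to 3.22). The log2 fold change was -1.42 ± 0.25 with the block (edgeR adjusted p 0.00387) and -1.42 ± 0.42 without it (0.395). Without the shared barcodes the paired change was -1.57 ± 0.27 (adjusted p 0.000526).

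The inner class had Tgfbr3 at 199 and 336 in the controls against 65.2 and 99.6 (log2 fold change -1.56 ± 0.24, adjusted p 0.0119 with the block, 0.382 without). The part of the makeup of the class in this difference was not tested. The Cnmd and Grem1 cluster, which held 48.5% and 82.9% of the control cells of the class, also had the highest Tgfbr3 of the inner clusters after injury, 140 and 174, where the M1ap and Fmod cluster had 65.4 and 93.6 and the Saa1 cluster 115 in round 2. Within the Cnmd and Grem1 cluster the controls stood at 236 and 397, and the log2 change was -0.95 ± 0.37 (adjusted p 0.384 with the block). In the Myoc and Angptl7 cluster the control values of 199 and 331 overlapped the injured values of 153 and 205. The injured value was the lower within each round, but the paired test was not passed (-0.40 ± 0.38, edgeR adjusted p 0.957). The outer class as a whole did not pass (-1.23 ± 0.40, adjusted p 0.0859 with the block).

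The latent binding proteins differed from each other in their change. Their UMIs are read near the 3′ end, so transcript length matters little, but whether the 4 genes are captured equally well was not tested. With that limit, the 4 are set side by side as shares of their summed UMIs. Of these, Ltbp4 made up 46.4% ± 0.68 (SD, n = 2) in the controls and 12.1% ± 0.77 after injury, while Ltbp2 made up 5.96% ± 0.23 and 34.8% ± 0.39. The share of Ltbp3 was 40.2% ± 1.28 and 41.6% ± 1.75, and that of Ltbp1 7.47% ± 0.83 and 11.5% ± 0.59. For Ltbp2 and Ltbp4 the rounds differed by far less than the groups, and for Ltbp3 the groups overlapped. Without the shared barcodes, Ltbp4 made up 45.6% ± 4.16 and 11.9% ± 0.77, and Ltbp2 5.39% ± 1.97 and 34.9% ± 0.33. With 2 libraries a group these shares are given without a test.

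**Figure D2:**
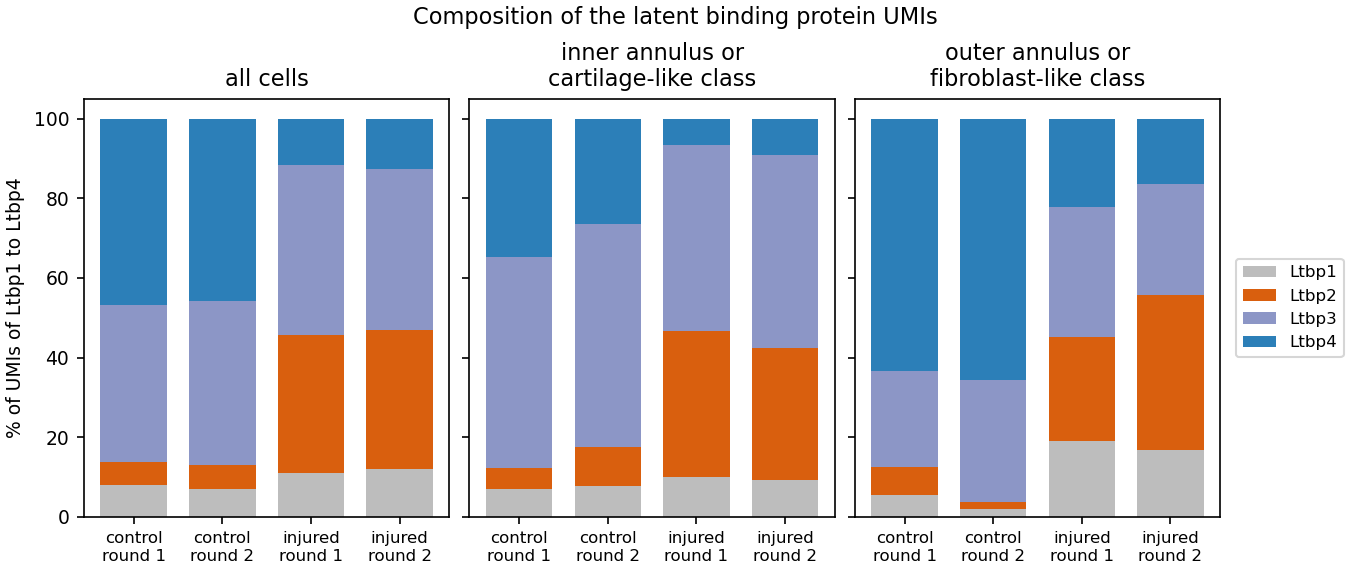
Each bar is 1 library, divided into the percent of the summed UMIs of the 4 latent binding protein genes, for all cells and for the inner and outer classes. Ltbp4 (top) shrinks and Ltbp2 grows in both injured libraries of every panel, and in the outer class Ltbp1 grows too, from 5.4% and 1.9% to 18.9% and 16.7%.

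Ltbp2 encodes the family member that does not bind latent TGF-beta and that associates with fibrillin fibres. It stood at 21.6 (23 UMIs) and 29.6 (64 UMIs) CPM in the controls and at 136 and 185 after injury. The injured level was 6.31 times the control in round 1 (95% Poisson interval 4.18 to 10.0) and 6.24 times in round 2 (4.86 to 8.13). Ltbp2 rose by 2.72 ± 0.27 on the log2 scale with the block (edgeR adjusted p 4.54e-05). Without the block the change was 2.71 ± 0.40 and the adjusted p 0.0696. Without the shared barcodes 14 of the 23 UMIs of control round 1 remained, at a level of 14.8, and the paired change was 2.83 ± 0.31 (adjusted p 1.94e-06). The Ltbp2 gene overlaps D030025P21Rik on the opposite strand.

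Ltbp2 rose in the inner class as well, from 16.8 and 39.0 to 144 and 169 (log2 fold change 2.63 ± 0.30, adjusted p 0.00268 with the block and 0.15 without). In the outer class it rose from 46.6 and 15.4, on 8 and 6 UMIs, to 169 and 243 (2.95 ± 0.53, adjusted p 0.00298 with the block and 0.0989 without). The unpaired change of 2.58 in the inner class was 3.32 without control round 2, and that of 2.88 in the outer class was 3.76 without control round 1 and 2.10 without control round 2. Ltbp2 passed the paired test within single clusters too. In the Cnmd and Grem1 cluster it went from 8.55 and 4.08 to 39.4 and 28.9, on 5, 4, 11 and 8 UMIs (2.47 ± 0.69, adjusted p 0.0443 against 1.03% of genes called). A single cell held 6 of the 11 and another 7 of the 8 injured UMIs. Free RNA held Ltbp2 at 26.6 and 25.8 CPM in injured rounds 1 and 2 and at 8.76 in control round 2. The part of free RNA in the levels of this cluster was not tested. In the Myoc and Angptl7 cluster it went from 41.2 and 13.6 to 204 and 122 (2.87 ± 0.50, adjusted p 0.011 against 0.116% of genes called). Neither cluster passed without the block (adjusted p 1.00 and 0.719). The unpaired change of 2.86 in the Myoc and Angptl7 cluster was 3.69 without control round 1 and 2.04 without control round 2.

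The main carriers of Ltbp2 after injury were the M1ap and Fmod cluster, at 392 and 331 CPM, and the Aspn and dividing clusters, at 247 and 310 in injured round 2. An unnamed cluster of few UMIs per cell had 411 and 303, on 31 and 54 UMIs. The Cnmd and Grem1 cluster was among the lowest at 39.4 and 28.9, and macrophages held 0 and 1 UMIs. Over the 7 clusters with enough cells in both injured libraries, Scx, Smco4 and Ext2 ran most like Ltbp2 (r = 0.99, 0.99 and 0.98). Scx encodes a tendon and ligament transcription factor. None of these 7 clusters belongs to the outer class. In the inner class, 15 outer annulus or fibroblast markers summed to 3172 and 2262 CPM in the controls and to 7142 and 9062 after injury. In the Cnmd and Grem1 cluster, where Ltbp2 rests on few UMIs, those markers summed to 2737 and 1854 in the controls. After injury they summed to 1511 and 1269 there. The part of fibroblast-like RNA in the levels of Ltbp2 was not tested.

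Ltbp4, which encodes a member tied to elastic fibres, fell. It stood at 175 and 222 CPM in the controls and at 45.6 and 66.5 after injury. The control level was 3.83 times the injured level in round 1 (95% Poisson interval 3.17 to 4.61) and 3.34 times in round 2 (2.97 to 3.76). The log2 change was -1.77 ± 0.25 with the block (edgeR adjusted p 0.000859) and -1.75 ± 0.38 without it (0.21). In the cells of injured round 1 its level was 0.963 times that of free RNA (47.4 CPM), so part of the 45.6 there need not come from the cells counted. That ratio was 5.60 in control round 2 and 2.27 in injured round 2.

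Both disc classes showed the fall of Ltbp4. The inner class went from 111 and 105 to 26.0 and 46.7 (log2 fold change -1.48 ± 0.30, adjusted p 0.0344 with the block and 0.428 without). The outer class, which had the higher level, went from 414 and 609 to 142 and 102 (-2.14 ± 0.41, adjusted p 0.00414 with the block and 0.0989 without). In single clusters the direction was the same but the test was not passed. The Cnmd and Grem1 cluster went from 111 and 128 to 46.5 and 47.0 (-1.31 ± 0.40, adjusted p 0.0773 with the block). The Myoc and Angptl7 cluster went from 336 and 594 to 187 and 176 (-1.22 ± 0.38, adjusted p 0.294).

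Of the classes with at least 20 cells in an injured library, the endothelial-like cells held most Ltbp4, 534 CPM on 92 UMIs in the 36 cells of injured round 1. Those cells made up 1.85% and 0.467% of cells in the controls and 4.63% and 0.872% after injury. In the outer class the 10 endothelial markers summed to 5.8 and 0 CPM in the controls and to 6.8 and 13.2 after injury. Over all cells they summed to 176 and 82.8 in the controls and to 208 and 61.3 after injury. An unnamed cluster led by Ccl11, Dpep1 and Lpl held Ltbp4 at 658 CPM on 75 UMIs in 267 cells of control round 2. In 28 cells of injured round 1 it had 530 on 6 UMIs. Only 17 cells of control round 1 and 7 of injured round 2 belonged to it. This cluster is among those left out with the shared barcodes. The part of that cluster and of the endothelial-like cells in the fall of Ltbp4 over all cells was not tested.

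**Figure D3:**
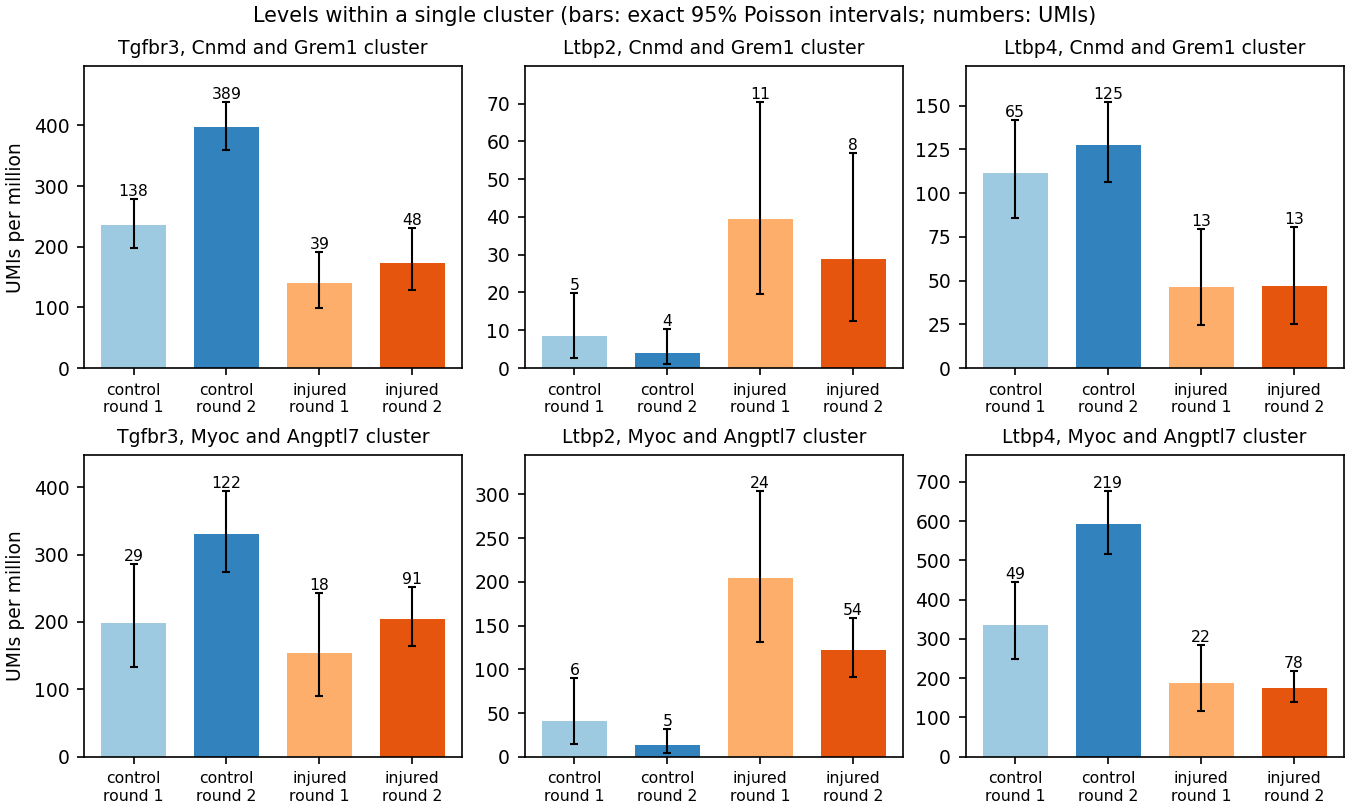
CPM of Tgfbr3, Ltbp2 and Ltbp4 within the Cnmd and Grem1 cluster (top) and the Myoc and Angptl7 cluster (bottom), 1 bar per library with its exact 95% Poisson interval and its UMI count above. Ltbp2 is higher in both injured libraries and Ltbp4 lower in both clusters; the Tgfbr3 bars overlap between groups in the Myoc and Angptl7 cluster.

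Ltbp1, the member most used to tether latent TGF-beta 1, rose in the outer class. Its level there was 35.0 and 17.9, on 6 and 7 UMIs, in the controls and 122 and 104 after injury (log2 fold change 2.18 ± 0.50, edgeR adjusted p 0.0159 with the block and 0.142 without). The Aspn and Postn cluster had 115 in injured round 2 and the dividing cluster 124. In the Myoc and Angptl7 cluster the controls had 34.3 and 13.6 and the injured libraries 51.1 and 27.0. The groups overlapped, though the injured level was the higher within each round, and Ltbp1 was not tested there. In the Cnmd and Grem1 cluster, Ltbp1 stood at 23.9 and 28.6 in the controls and at 7.16 and 7.23 on 2 UMIs each after injury. Over all cells it stood at 30.1 and 33.3 against 43.7 and 62.6, and the change of 0.82 ± 0.26 had an adjusted p of 0.0898 with the block. That p was 0.0457 without the shared barcodes and 0.0433 without the mitochondrial and nucleus pulposus-like clusters. In cells thinned to 1000 UMIs the unpaired change over all cells, 0.82 in full, was -0.087.

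Ltbp3 was the steadiest and most abundant latent binding protein transcript by UMIs in the inner class. It stood at 147 and 199 CPM over all cells of the controls and at 169 and 213 after injury (log2 fold change 0.22 ± 0.25, adjusted p 0.675 with the block). Of the inner clusters compared, all lay between 171 and 274 in the injured rounds. In the Myoc and Angptl7 cluster it stood at 307 and 425 after injury and at 158 and 271 in the controls (0.93 ± 0.37, adjusted p 0.643). Whether reads were assigned by strand, which the levels of Tgfb3 and Ltbp2 depend on, is not given in the sources used here.

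**Figure D4:**
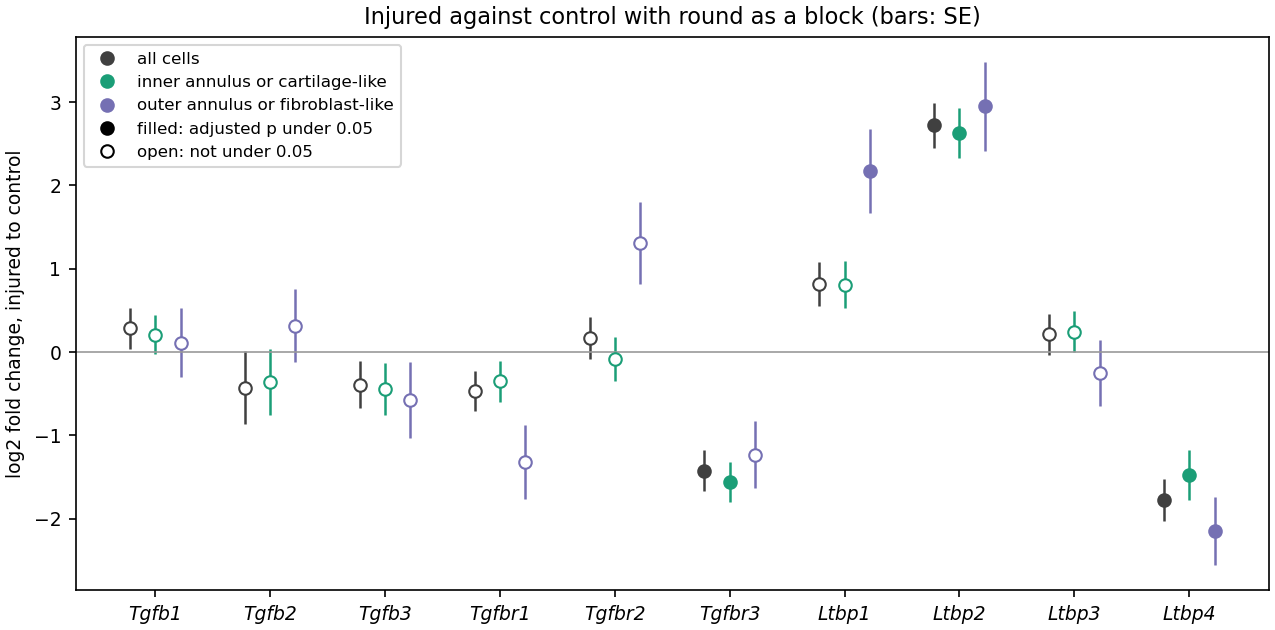
Log2 fold change of injured against control libraries with its SE, from the paired edgeR fit, for all cells and for the inner and outer classes. Filled points passed an adjusted p of 0.05: Tgfbr3, Ltbp2 and Ltbp4 over all cells and in the inner class, and Ltbp1, Ltbp2 and Ltbp4 in the outer class.

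By class, the paired test called 3 of 10 in the inner class against 2.7% of all 10691 genes tested (the same 3 against 4.34% without the shared barcodes), and 3 of 10 in the outer class against 5.17% of 4775. Without the block both classes gave 0 of 10, where 0% of all genes were called in either. At an unadjusted p under 0.05 there were then 3 of 10 in the inner and 5 of 10 in the outer class, and DESeq2 called 1 and 2, against 0.907% and 1.51% of all genes. Over the inner, outer and nucleus pulposus-like classes together the paired test called Tgfbr3, Ltbp2 and Ltbp4 again (3 of 10, against 4.55% of 11173) and the unpaired test 0 of 10 (against 0.0269%), with 4 at an unadjusted p under 0.05 and 2 called by DESeq2 (1.09% of all genes). With no filter on low counts the unpaired edgeR test called 2 of 10 over all cells (1.76% of all genes), 2 in these classes together (1.43%), 1 in the inner (1.03%), 3 in the outer class (1.32%) and 0 for class by injury (0.681%).

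Shares of cells with a UMI, at a matched depth of 1000 UMIs per cell, ran the same way for Ltbp2, Ltbp4 and Tgfbr3 in the disc-cell classes. Ltbp2 was seen in 1.19% and 1.52% of control cells (95% Clopper-Pearson intervals 0.144 to 4.23 and 0.495 to 3.51) and in 8.40% and 12.7% of injured cells (6.14 to 11.1 and 11.0 to 14.5). Ltbp4 was seen in 14.9% and 12.2% against 2.73% and 5.79%, and Tgfbr3 in 13.1% and 23.4% against 6.64% and 9.86%. The direction for Ltbp1 depended on the depth: at 1000 UMIs it was seen in 5.36% and 2.74% of control and 3.32% and 3.72% of injured disc cells, and at 2000 UMIs in 5.00% and 4.33% against 7.33% and 8.87%. In the inner class the shares were 4.96% and 2.63% against 2.30% and 2.36% at 1000 and 2.94% and 4.67% against 6.07% and 5.41% at 2000 UMIs. Outer-class cells with Ltbp1 numbered 1 of 32 and 0 of 50 in the controls and 6 of 30 and 28 of 381 after injury at 1000 UMIs (0 of 50 allows up to 7.11%, Clopper-Pearson), and their shares were 6.25% and 4.35% against 26.7% and 18.1% at 2000. Before thinning, Tgfbr3 was seen in 28.1% and 53.7% of control against 43.3% and 41.2% of injured cells. The median cell of a library held 1062 and 836 UMIs in the controls and 7034 and 4635 after injury, and thinning left out 99 and 47 control and 8 and 28 injured disc cells with fewer than 1000. Among 31 and 77 injured macrophages at that depth, 0 held Ltbp2 or Ltbp4 in either library, which allows shares of up to 11.2% and 4.68% (Clopper-Pearson), and 0 and 1 held Tgfbr3. These limits are on cells with a captured UMI at that depth, not on cells expressing the gene.

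**Figure D5:**
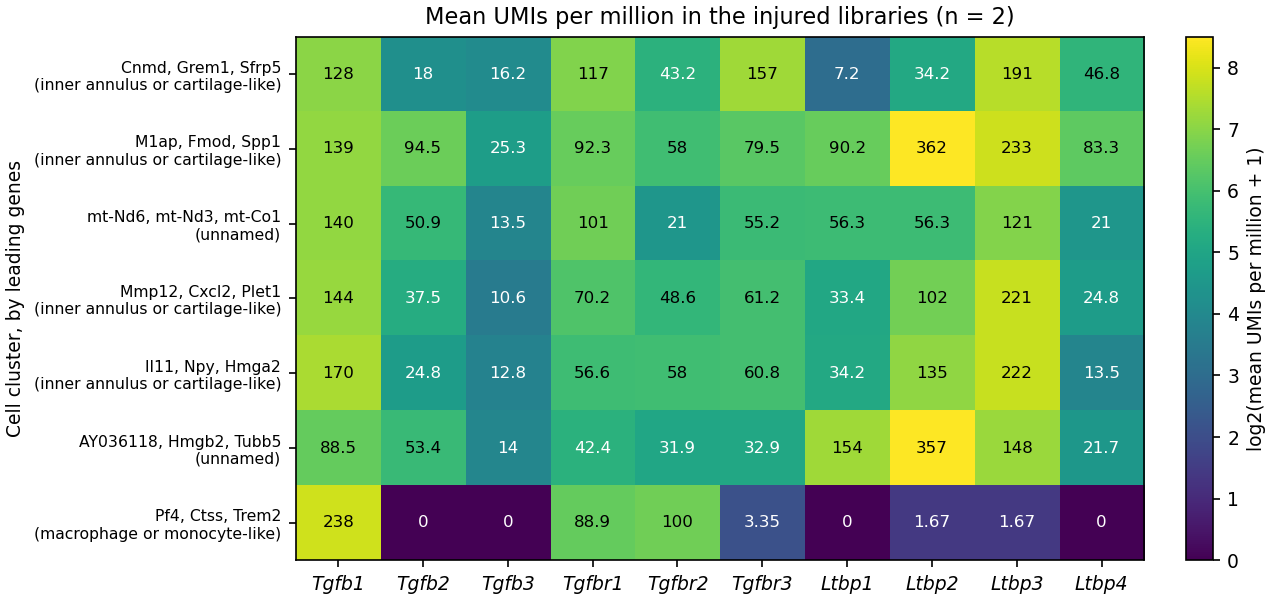
Mean CPM of each gene over the 2 injured libraries in the 7 clusters with at least 20 cells in both, with color on a log2(mean + 1) scale. The macrophage or monocyte-like cluster holds the highest Tgfb1 and 0 to 3.35 of Tgfb2, Tgfb3, Tgfbr3 and all 4 Ltbp genes; Ltbp2 is highest, at 362, in the M1ap and Fmod cluster.

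For each member, the 3 most similar genes over those 7 clusters had r of 0.94 to 1.00 across 5698 genes, and with 7 points drawn from the same libraries such values are a description. Tgfbr3 ran most like Nfatc2, Vcan and Gas1, Ltbp4 like Fibin, Chad and Ptgis, and Ltbp1 like Prrx1, Pdzd11 and Nek1. Tgfb3 ran most like Osbpl3, Col15a1 and Pkd2, and Tgfbr1 like Ssh1, Tsc22d2 and Synpo.

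Other genes of the pathway were read from 4 lists. Among 19 tested activators and partners of the latent complex, 3 rose and 1 fell over all cells in the paired fit (6.14% of all genes called), and the median log2 change was 0.69 against -0.01 for all genes. Fn1, the fibronectin to which latent complexes attach, rose from 4939 ± 787 to 16518 ± 891 CPM (SD, n = 2; adjusted p 0.0183). Fbn1, encoding fibrillin-1, rose in the outer class from 66.5 ± 36.3 to 654 ± 313 (3.28 ± 0.44, adjusted p 0.000394). Over all cells Fbn1 was just inside the threshold (1.21 ± 0.33, adjusted p 0.0499). Bmp1, encoding a matrix protease, also rose over all cells and in the outer class. Thbs1, encoding the activator thrombospondin-1, fell over all cells (-1.19 ± 0.27, adjusted p 0.0218) and in the outer class (-1.48 ± 0.40, adjusted p 0.0345). Mmp14 and Aspn rose in the outer class. With the block, 4 of the 15 tested in the outer class rose and 1 fell (5.17% of all genes called), and 0 of 15 passed in the inner class (2.7%), 7 of them at an unadjusted p under 0.05. The abundant proteoglycan gene Dcn did not pass in any of these.

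The SMADs and their regulators gave no call: 0 of 20 tested over all cells, 0 of 20 in the inner and 0 of 15 in the outer class, with and without the block. The paired fits called 6.14%, 2.7% and 5.17% of all genes in these comparisons, so 0 calls in lists of this size is near the background. At an unadjusted p under 0.05 there was 1 in each with the block and 0 without, and DESeq2 called 0. Pmepa1, a feedback inhibitor of the pathway, stood at 799 ± 203 in the controls and 885 ± 58.7 after injury, and Skil, another, at 396 ± 39.2 and 250 ± 1.55. Of 11 further receptors and co-receptors only Bambi, a decoy receptor, passed, and it fell (-1.11 ± 0.25, adjusted p 0.0211 over all cells, paired). That is 1 of 11 against 6.14% of all genes, and without the block it was 0 of 11 (0 at an unadjusted p under 0.05, 0 by DESeq2).

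Of 22 tested TGF-beta response genes, 6 rose and 2 fell over all cells in the paired fit, in which 6.14% of all genes were called. Those that rose included Cthrc1 (6.31 ± 0.46, adjusted p 2.05e-06), Timp1 (2.44 ± 0.39, 0.00212), Col1a1 (2.16 ± 0.40, 0.00604) and Col3a1 (1.62 ± 0.39, 0.0256). Cilp, whose product binds TGF-beta 1 in cartilage, fell (-2.01 ± 0.34, 0.00306). In the inner class 4 of 19 rose and 1 fell (2.7% of all genes called), and in the outer class 6 of 20 rose and 1 fell (5.17%). Without the block, 0 of the 72 listed genes tested over all cells passed (13 at an unadjusted p under 0.05, 4 by DESeq2), against 0.117% of all genes. The unpaired test also gave 0 of 62 in the inner class (11 at an unadjusted p under 0.05, 7 by DESeq2) and 0 of 56 in the outer class (17 and 8), where 0% of all genes were called. Many of these response genes, among them the collagens, Postn and Cthrc1, also mark fibroblasts, and Cthrc1 and Postn lead an outer cluster that few control cells belonged to, and the part of this makeup in their counts was not tested.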

How the data were processed

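Droplet 3′ single cell RNA libraries of 2 control and 2 injured disc pools were used. Per the submitters' processing notes the authors used Cell Ranger and mm10, and per the file headers version 6.0.0 was used for control round 1 and version 4 for the others. The deposited values are UMI counts, whole and not normalized. The deposited control matrix of round 1 listed 444 barcodes with at least 502 UMIs each, and the others were unfiltered.

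Cells needed at least 250 genes. UMIs scaled to 10000 and log-transformed gave 2000 variable genes, 30 principal components and Leiden clusters at resolution 1 (scanpy 1.11.5, leidenalg 0.10.2), with the 10 genes left out. A cluster was named from the marker list best represented among genes seen in at least 25% of its cells and at least 1.2 times the level of the others, and stayed unnamed with under 3 such markers, with low UMIs, or where shared barcodes made up its cells of control round 1; doublets were removed only in an alternative (1, 5, 6 and 27 cells). Rebuilt names may differ from those of the authors.

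UMIs were summed per library and class and tested with edgeR 4.0.16 (filterByExpr, TMM, quasi-likelihood, Benjamini-Hochberg over all genes tested), with DESeq2 1.42.0 as an alternative. The comparison without a block was the planned one. Per the labels, both groups of discs come from the same animals, so rounds pair the libraries, and same-round deviations from group means correlated at 0.508 over all cells, 0.458 in the disc classes, 0.534 in the inner class and 0.276 in the outer one. The members and lists were chosen with earlier results of these data known. All 10 members are named; other genes are named where called (up to 5 per list and comparison, by size) or where their mean level was among the 2 highest of a list. Alternatives covered normalization, filters on genes and cells, doublets, shared barcodes, thinning to 1000 UMIs, clustering resolution and leaving out each library. Some restricted to single clusters were chosen after seeing the data. Those without the dividing cluster, or without the mitochondrial and nucleus pulposus-like clusters, were not among the planned comparisons. Promoter sequences are RefSeq's (GRCm38.p6), and positions are from GENCODE M21 (GRCm38, the same build as mm10).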

Additional observations from a re-analysis of the deposited data

How the results depend on the processing

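With the round as a replicate block, the number of the 10 genes called went from 0 to 3 over all cells, in the disc classes together, in the inner class and in the outer class, and with shared barcodes also left out it was 4, 3, 3 and 3. DESeq2 called 2, 2, 1 and 2, and edgeR without a filter on low counts 2, 2, 1 and 3. Thinning gave 1 over all cells (0.72% of all genes). Leaving out each library gave 1 to 2 over all cells (0.949% to 2.42% of all genes), 0 to 1 in the disc classes (0% to 0.813%), 0 to 2 in the inner class (0.178% to 1.78%), 0 to 2 in the outer class (0% to 2.38%) and 0 to 1 for class by injury (0.446% to 3.11%; Tgfbr1, without injured round 1). Ltbp2 was called over all cells whichever library was left out (and Ltbp4 without injured round 2), in the disc classes without control or injured round 2, in the inner class without control round 1 (with Tgfbr3) or 2, and in the outer class without control round 1 (with Ltbp4). Other normalizations, a minimum of 500 genes, under 10% mitochondrial UMIs, doublet scores and shared barcodes alone left these counts at 0. The cause was not tested. Of the log2 fold changes of single genes, 669 kept their direction and their side of the threshold, 54 passed it in addition and 43 changed sign.

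Thinned, the change of Ltbp1 was -0.087 over all cells and -0.011 in the disc classes, of Tgfbr2 0.15 in the inner and of Ltbp3 0.10 in the outer class, and of Tgfb3 1.57 and Tgfbr1 0.013 for class by injury. Without a low-count filter Tgfbr2 in the inner class was 0.0053. With library totals only, class by injury was 0.065 for Tgfb1 and 0.071 for Tgfb3. In the Cnmd and Grem1 cluster alone Tgfb1 was -0.11, Tgfbr1 0.10, Ltbp1 -1.81 and Ltbp3 -0.0074, and in the Myoc and Angptl7 cluster alone Tgfb2 was -0.49, Tgfb3 0.068 and Ltbp3 0.92.

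Sign changes when 1 library was left out are given as ranges of the log2 change. Over all cells they were -1.52 to 0.80 for Tgfb2, -1.12 to 0.19 for Tgfb3 and -0.23 to 0.70 for Tgfbr2. In the disc classes they were -1.55 to 1.07 for Tgfb2, -1.15 to 0.073 for Tgfb3, -0.11 to 0.65 for Tgfbr2 and -0.030 to 0.41 for Ltbp3. In the inner class they were -1.56 to 1.33 for Tgfb2, -0.40 to 0.34 for Tgfbr2 and -0.031 to 0.54 for Ltbp3. In the outer class they were -0.20 to 0.62 for Tgfb2, -0.89 to 0.18 for Tgfb3 and -0.57 to 0.22 for Ltbp3. For class by injury they were -0.27 to 0.014 for Tgfb1, -0.66 to 1.73 for Tgfb2, -0.39 to 0.32 for Tgfb3, -1.81 to 0.094 for Tgfbr1, -0.13 to 0.90 for Tgfbr3, -1.22 to 1.49 for Ltbp2 and -1.36 to 0.10 for Ltbp4. The lone library of a group was then assumed to vary like the other group. The outer-class levels depended on the clustering: at resolution 0.5, with 5 and 4 control cells, the mean CPM (control against injured) was 55.7 against 152 for Ltbp1, 56.8 against 252 for Ltbp2 and 771 against 88.5 for Ltbp4, and in the inner class Ltbp4 was at 181 against 42.0. No test was fitted at other resolutions. Control levels in single clusters rest on few UMIs, which limits their precision.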
